A study of Mus musculus with 5 samples.

Results

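Amino acid transporters are membrane proteins that carry amino acids across the cell surface, and 10 of their genes were followed in mouse heart grafts with and without prolonged cold storage. The members were listed by gene symbol, and a probe set belonged to a member when the platform annotation gave that symbol as its only one. All 10 listed genes were found, on 11 of the 21789 probe sets with a single symbol, among 19938 genes. Slc38a1 had 2 probe sets and the other members had 1 each. The study was a heterotopic heart transplantation between C57BL/6 mice aged 8 weeks, with the graft implanted in the abdomen, and total RNA of each graft was hybridised to 1 Affymetrix Mouse Gene ST array. The I/R grafts 2553, 2555 and 2557 were kept for 18 h at a cold temperature in University of Wisconsin solution before implantation (n = 3), and the non-I/R grafts 2554 and 2556 were implanted at once (n = 2). Both groups were of the same strain and went through the same surgery and reperfusion, so the non-I/R grafts were also transplanted hearts and no heart without surgery was on these arrays. The labels give harvest at 24 h after transplantation, and the study's text also gives day 2. Values are RMA signals, a background-corrected log2 scale on which a difference of 1 is 2-fold, and log2 fold changes are I/R minus non-I/R, so positive values stand for higher I/R signals. Levels of different probe sets are not comparable on this scale, so only differences between grafts are compared between genes.

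Cells take up amino acids for protein synthesis, for glutathione and as fuel, mostly through exchangers and sodium-driven carriers. Many of these genes are known targets of ATF4, the transcription factor that is made when amino acids are short or the endoplasmic reticulum is stressed. ATF4 binds with a C/EBP partner to a composite site known as the C/EBP-ATF response element, or CARE. The cystine carrier gene Slc7a11 is also known as a target of NRF2, the transcription factor of the oxidative stress response, which binds antioxidant response elements.

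The promoter windows at hand differed between members in whether they held the core letters of the CARE. RefSeq promoter windows of 300 bases, 250 before and 50 after an annotated start, were at hand for 6 of the 10 members (9 windows, build GRCm38.p6). The core letters of the CARE, TGATGNAA on either strand, were found in the windows of 2 members, Slc7a11 and Slc1a4. None of the windows of Slc7a1, Slc3a2, Slc38a2 and Slc6a9 held them. Bases outside the windows were not searched, so these genes cannot be said to lack such a site. Of 32851 windows of this length in the mouse table, 3.97% held at least 1 match. The stretches below are shown because they hold these matches, with the matches in capitals, 5′ to 3′ on the strand of the gene.
Slc7a11: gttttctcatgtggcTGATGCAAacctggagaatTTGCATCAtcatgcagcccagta
Slc1a4: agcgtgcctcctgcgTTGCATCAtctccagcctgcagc

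The Slc7a11 stretch lies at chr3:50443638-50443694 on the minus strand and holds 2 matches in opposite orientations, at -66 to -59 and at -47 to -40 from the annotated start, whose base counts as 0. Of all windows, 23 of the 32851 windows (0.0700%) held 2 or more matches. The Slc1a4 stretch lies at chr11:20332695-20332732 on the minus strand, and its match, on the opposite strand, runs from -4 to 3 and so covers the annotated start. The core of the antioxidant response element, TGANNNNGC on either strand, was found in 6 of the 9 windows and 5 of the 6 members, against 41.3% of all windows. In Slc7a11, 1 of its matches overlaps the second CARE match. A match is a description of the letters and not evidence of binding.

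All 10 transporters had higher mean signals in the I/R grafts, against 44.0% of all 21789 probe sets, although Slc7a3 was higher by only 0.062. The differences were largest for the cystine carrier Slc7a11, the leucine carrier Slc7a5 and the arginine carrier Slc7a1. By limma, 5 of the 10 were higher at an unadjusted p under 0.05 and 0 were lower, against 7.64% of all 21789 probe sets that were higher and 7.35% that were lower. Those 5 were Slc7a1, Slc3a2, Slc7a5, Slc7a11 and Slc38a1. The share over all probe sets is lowered by dim ones, and 9 of the 10 members were above the median signal. When only probe sets above it were fitted, 6 of these 9 were higher at that threshold, against 1531 of 10894 probe sets. At the study's criterion of 2-fold and p under 0.05, 3 of the 10 were higher, against 0.496% of all probe sets. These 3, Slc7a1, Slc7a5 and Slc7a11, are on the study's own 2-fold list, which was known when the members were chosen. This count is therefore not independent of the choice of members. In 7 of the 10, every I/R graft lay above both non-I/R grafts, against 15.8% of all probe sets. The reverse, with all I/R grafts under both controls, was seen in 0 of the 10, against 16.2%. The median log2 fold change over the 10 members was 0.61, and over all probe sets tested it was -0.0079. After adjustment over all probe sets no member passed 0.05 by limma, and neither did any other probe set (0%), although 3265 probe sets had an unadjusted p under 0.05. The methods' t-test left 2 probe sets past an adjusted p of 0.05, and no member among them. With 3 grafts against 2 there are 10 ways to split the arrays, so an exact two-sided permutation test cannot go below 0.1.

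**Figure D1:**
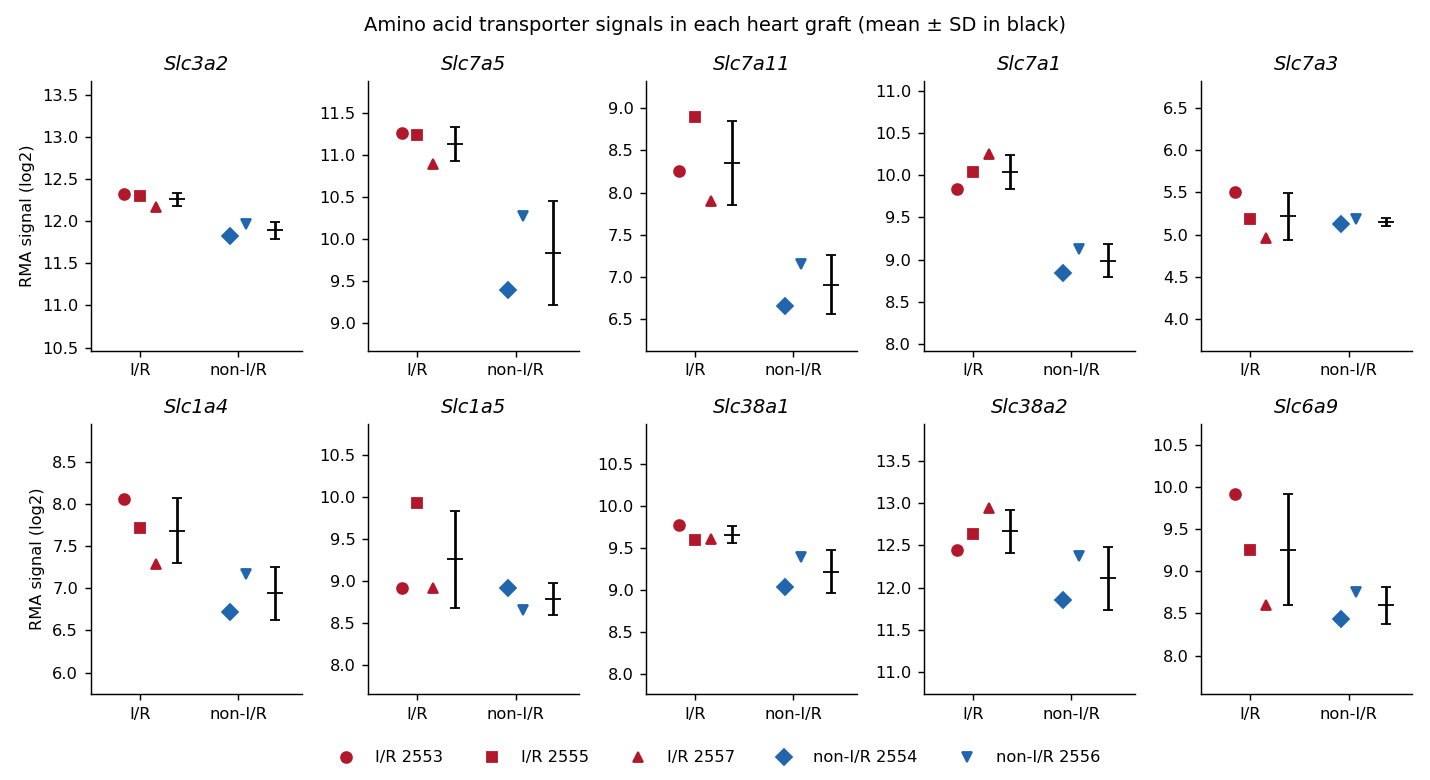
RMA signals (log2, y axis) of the 10 transporter genes in the 5 grafts, with I/R in red (n = 3), non-I/R in blue (n = 2), 1 symbol for each graft and the mean ± SD in black; every panel spans the same number of log2 units. The groups do not overlap in 7 panels, and they overlap for Slc7a3, Slc1a5 and Slc6a9.

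Slc3a2 encodes the heavy chain of CD98, a glycoprotein that brings several SLC7 light chains to the cell surface. Its signals were 12.32, 12.30 and 12.17 in I/R grafts 2553, 2555 and 2557, against 11.82 and 11.97 in non-I/R grafts 2554 and 2556. The groups did not overlap, and the grafts of each group lay close together. The log2 fold change was 0.37 (SE 0.074), or 1.29-fold (limma p = 0.00833, adjusted p = 0.282, exact permutation p = 0.1). It stayed at an unadjusted p under 0.05 with each graft left out in turn, with log2 fold changes of 0.30 to 0.45.

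Slc7a5, the light chain that pairs with Slc3a2 to exchange large neutral amino acids such as leucine for glutamine, differed more. It had signals of 11.26, 11.23 and 10.89 in I/R grafts 2553, 2555 and 2557, against 9.40 and 10.27 in non-I/R grafts 2554 and 2556. The I/R grafts were all above both non-I/R grafts, and the non-I/R grafts differed from each other more than the I/R grafts did. The group means were 11.13 ± 0.20 in I/R grafts (SD, n = 3) and 9.83 ± 0.62 in non-I/R grafts (SD, n = 2). This was a log2 fold change of 1.30 (SE 0.32), or 2.46-fold (limma p = 0.0169, adjusted p = 0.286, exact permutation p = 0.1), with rank 45 of all probe sets from the highest. Without non-I/R 2554 it was 0.86, under 2-fold, and its unadjusted p was 0.0661 without I/R 2553 and 0.0637 without I/R 2555.

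Slc7a11, the light chain of the carrier that takes up cystine in exchange for glutamate and so supplies cysteine for glutathione, had the largest difference of the 10. Its signals were 8.26, 8.89 and 7.90 in I/R grafts 2553, 2555 and 2557, against 6.66 and 7.15 in non-I/R grafts 2554 and 2556. The lowest I/R graft was 0.75 log2 units above the highest non-I/R graft, the widest gap among the members. This gave 8.35 ± 0.50 in I/R grafts (SD, n = 3) and 6.91 ± 0.35 in non-I/R grafts (SD, n = 2), a log2 fold change of 1.45 (SE 0.37) or 2.72-fold (limma p = 0.0189, adjusted p = 0.286, exact permutation p = 0.1). By fold change it had rank 25 of all probe sets from the highest. With 1 graft left out it was 1.18 to 1.69. The unadjusted p was above 0.05 when graft 2553 (0.0621), 2554 (0.112) or 2556 (0.0546) was dropped. This is the member whose promoter window holds the CARE letters in both orientations, as printed above.

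Slc7a1 and Slc7a3 encode cationic amino acid transporters, which carry arginine, lysine and ornithine without the CD98 heavy chain. Slc7a1, the widely expressed form, had signals of 9.84, 10.04 and 10.25 in I/R grafts 2553, 2555 and 2557, against 8.85 and 9.12 in non-I/R grafts 2554 and 2556. The groups were 0.72 apart and each was tight. Its log2 fold change was 1.06 (SE 0.17), or 2.08-fold (limma p = 0.00355, adjusted p = 0.282, exact permutation p = 0.1). This unadjusted p was the smallest of the members, and it kept an unadjusted p under 0.05 with each graft left out, at 0.92 to 1.20. Slc7a3, known mainly from the brain, had signals of 5.51, 5.19 and 4.95 in I/R grafts 2553, 2555 and 2557, against 5.12 and 5.19 in non-I/R grafts 2554 and 2556. Both non-I/R grafts lay within the range of the I/R grafts. Its log2 fold change was 0.062 (SE 0.18, limma p = 0.755, exact permutation p = 0.9) with a 95% interval of -0.46 to 0.58, and it was -0.083 without I/R 2553. Its mean signal over all grafts was under the lower quartile of all probe sets, the only member of which this was true.

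**Figure D2:**
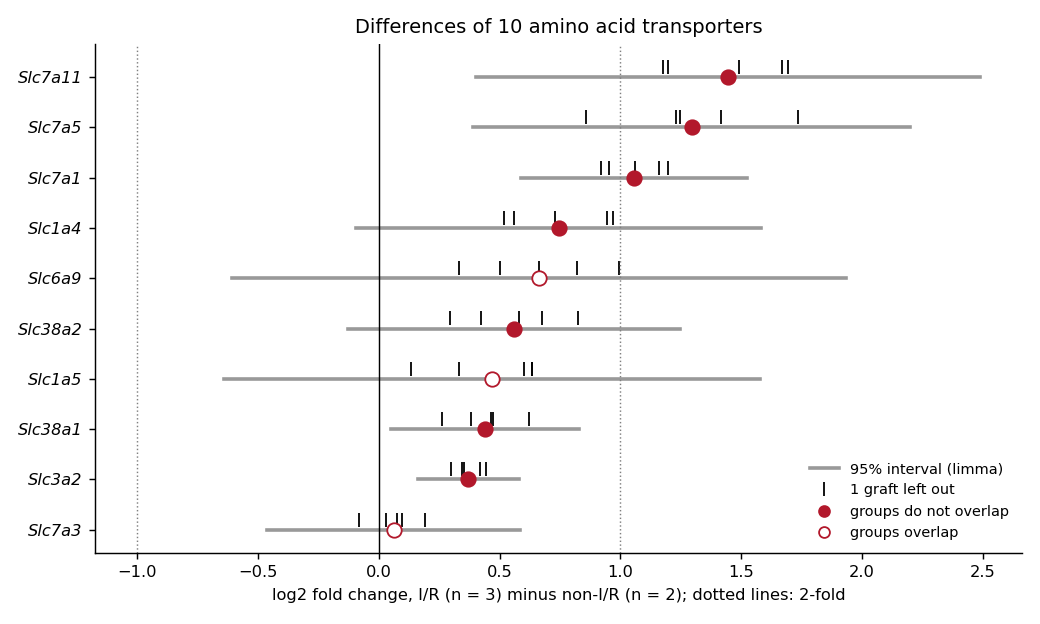
Log2 fold change of each transporter (x axis, I/R minus non-I/R), ordered by size, with its 95% interval from limma in grey and the 5 values with 1 graft left out as ticks. Filled circles mark the 7 genes whose groups do not overlap, and Slc7a11, Slc7a5 and Slc7a1 lie beyond 2-fold.

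Slc1a4 and Slc1a5 encode sodium-dependent exchangers of small neutral amino acids, with alanine and serine as main substrates of the first and glutamine of the second. Slc1a4 had signals of 8.06, 7.71 and 7.28 in I/R grafts 2553, 2555 and 2557, against 6.71 and 7.16 in non-I/R grafts 2554 and 2556. The groups did not overlap, but I/R 2557 was only 0.12 above non-I/R 2556. The difference was 0.74 on the log2 scale (SE 0.30, limma p = 0.0689, adjusted p = 0.366, exact permutation p = 0.2), and it was 0.95 with an unadjusted p of 0.0355 without I/R 2557. Slc1a5 had signals of 8.92, 9.93 and 8.92 in I/R grafts 2553, 2555 and 2557, against 8.92 and 8.65 in non-I/R grafts 2554 and 2556. The deposited values of I/R 2553, I/R 2557 and non-I/R 2554 were identical to the last digit, and only I/R 2555 stood above them. Its log2 fold change of 0.47 (SE 0.39, limma p = 0.301, exact permutation p = 0.6) had a 95% interval of -0.64 to 1.58 and was 0.13 without I/R 2555.

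Slc38a1 and Slc38a2 encode sodium-coupled carriers of glutamine, alanine and other neutral amino acids, and the second is known to be induced when amino acids are short. The genes are neighbours on chromosome 15 in GRCm38.p6. The brighter Slc38a1 probe set had signals of 9.77, 9.59 and 9.61 in I/R grafts 2553, 2555 and 2557, against 9.04 and 9.40 in non-I/R grafts 2554 and 2556. These groups did not overlap, with a log2 fold change of 0.44 (SE 0.14, limma p = 0.0351, adjusted p = 0.311, exact permutation p = 0.1). It was 0.26 without non-I/R 2554, and its unadjusted p was between 0.0794 and 0.104 without 2553, 2554, 2555 or 2557. The dimmer Slc38a1 probe set had signals of 7.28, 6.46 and 6.62 in the same I/R grafts, against 6.31 and 6.62 in the non-I/R grafts. Its groups overlapped, its log2 fold change was 0.32 (SE 0.31, limma p = 0.353, exact permutation p = 0.6), and only I/R 2553 stood above the other grafts. Slc38a2 had signals of 12.44, 12.63 and 12.94 in I/R grafts 2553, 2555 and 2557, against 11.85 and 12.38 in non-I/R grafts 2554 and 2556. I/R 2553 was 0.064 above non-I/R 2556, so the groups were barely apart. Its log2 fold change was 0.56 (SE 0.24, limma p = 0.0856, adjusted p = 0.398, exact permutation p = 0.2), and it was 0.30 without non-I/R 2554.

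Slc6a9 encodes the sodium- and chloride-dependent glycine transporter. Its signals were 9.92, 9.26 and 8.60 in I/R grafts 2553, 2555 and 2557, against 8.44 and 8.75 in non-I/R grafts 2554 and 2556. The I/R grafts were spread widely, and 2557 lay between the non-I/R grafts. The log2 fold change was 0.66 (SE 0.45, limma p = 0.218, exact permutation p = 0.3) with a 95% interval of -0.61 to 1.93.

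How far members moved was compared for 6 pairs chosen after their values had been seen. The exact permutation p cannot go below 0.1, so no pair could have passed an adjusted p of 0.05. The light chains Slc7a5 and Slc7a11 had log2 fold changes above that of their heavy chain Slc3a2 by 0.93 (SE 0.29, 95% interval 0.012 to 1.84) and 1.07 (SE 0.36, 95% interval -0.066 to 2.21), and in both pairs the within-graft difference did not overlap between the groups. The exact permutation p was 0.1 in both, the smallest the design allows, and 0.3 after adjustment over the 6 pairs. How often other pairs of genes would not overlap was not computed. The pair of Slc7a1 and Slc7a3 is not read as a comparison, since the dim, partly tied signal of Slc7a3 leaves mainly the change of Slc7a1 in it. Slc7a5 and Slc7a11 differed by -0.15 with a 95% interval of -1.16 to 0.86. Slc1a4 and Slc1a5 differed by 0.28 (-1.54 to 2.09), and Slc38a1 and Slc38a2 by -0.12 (-0.95 to 0.71). The intervals of these last 3 pairs are too wide to show whether their members moved alike.

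The grafts did not contribute evenly. I/R 2553 had the highest signal of the 5 grafts in 6 of the 10 members, I/R 2555 in 2 and I/R 2557 in 2, and non-I/R 2554 had the lowest in 8. As the mean deviation of the 10 members from their means over the 5 grafts, 2553, 2555 and 2557 were at 0.36, 0.41 and 0.084, and non-I/R 2554 and 2556 at -0.59 and -0.26. The root mean square difference over the members was 0.466 between I/R 2553 and I/R 2555 and 0.729 between I/R 2553 and non-I/R 2556. Over all probe sets the order of those distances was turned, at 0.303 and 0.252. Over the members, I/R 2557 lay 0.528 from non-I/R 2556 and 0.582 from I/R 2553. Without I/R 2553, 2 of the 10 members were higher at an unadjusted p under 0.05 by limma, against 1423 of all 21789 probe sets. Without I/R 2555 there were 3, against 1404, and with all grafts 5, against 1664. Without non-I/R 2554 the median log2 fold change of the members was 0.51. The 2-fold criterion was met by 1 member without I/R 2553, against 3 with all grafts. No share over all probe sets was computed for the count without I/R 2553. Without non-I/R 2554, Slc7a1 and Slc7a5 were under 2-fold, at 0.92 and 0.86, and Slc7a11 was at 1.20.

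The list of other amino acid transporters of the cell surface held many dim probe sets. Of 40 genes measured, 19 had higher mean signals, 18 had lower ones and 3 had the same value on every array, and the median log2 fold change was 0. By limma, 1 was higher and 3 were lower at an unadjusted p under 0.05. Counts of this and the later lists stand beside 7.64% of all probe sets that were higher and 7.35% that were lower. By the mean alone, 44.0% of all probe sets were higher. Probe sets above the median signal, fitted alone, passed more often, with 1531 of 10894 higher and 1291 lower. The mean signal was above the median of all probe sets (7.21) in 10 of the 40, against 9 of the 10 members, and below the lower quartile (5.55) in 11, so the median of the list was set largely by dim probe sets and is no measure of the expressed transporters. Among the 10 brighter genes, a split made after the values had been seen, 6 had higher and 4 had lower means, with log2 fold changes of -1.70 to 0.71 and a median of 0.25. They included the taurine carrier Slc6a6 with 0.71 (SE 0.48), the cationic carrier Slc7a2 with 0.53 (SE 0.20) and Slc43a2 with 0.34 (SE 0.14), of which none passed that threshold. The 1 gene higher at that threshold was Slc7a6, a further light chain of Slc3a2 for cationic and neutral amino acids, with 8.96, 9.26 and 9.43 in I/R grafts 2553, 2555 and 2557, against 8.37 and 8.70 in non-I/R grafts 2554 and 2556 (log2 fold change 0.68, SE 0.19). The remaining light chains of Slc3a2 on the list, named after their values had been seen, had log2 fold changes of 0.26 for Slc7a7, 0.25 for Slc7a8 and 0 for Slc7a10, none past that threshold, and Slc7a10 had the same value on all 5 arrays. The 3 lower ones were Slc38a3, a glutamine and histidine carrier, with -1.70 (SE 0.42), the proton-coupled carrier Slc36a2 with -0.78 (SE 0.25) and Slc7a4 with -0.15 (SE 0.018). Slc38a3 thus lay on the opposite side of 0 from its family members Slc38a1 and Slc38a2, with 8.36, 7.74 and 8.74 in I/R grafts 2553, 2555 and 2557, against 10.37 and 9.59 in non-I/R grafts 2554 and 2556.

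Carriers inside the cell were also listed. Of 10 transporters of the lysosome, 1 was higher at an unadjusted p under 0.05 and 0 were lower, with a median of 0.081. This count is near the 7.64% of all probe sets that were higher. The gene was Slc36a1, which exports amino acids from lysosomes, with 0.37 (SE 0.10). Of 9 mitochondrial carriers, 0 were higher and 3 were lower, with a median of -0.16. They were the aspartate-glutamate carriers Slc25a12 and Slc25a13, with -0.65 (SE 0.14) and -0.82 (SE 0.26), and the glutamate carrier Slc25a22, with -0.16 (SE 0.033).

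**Figure D3:**
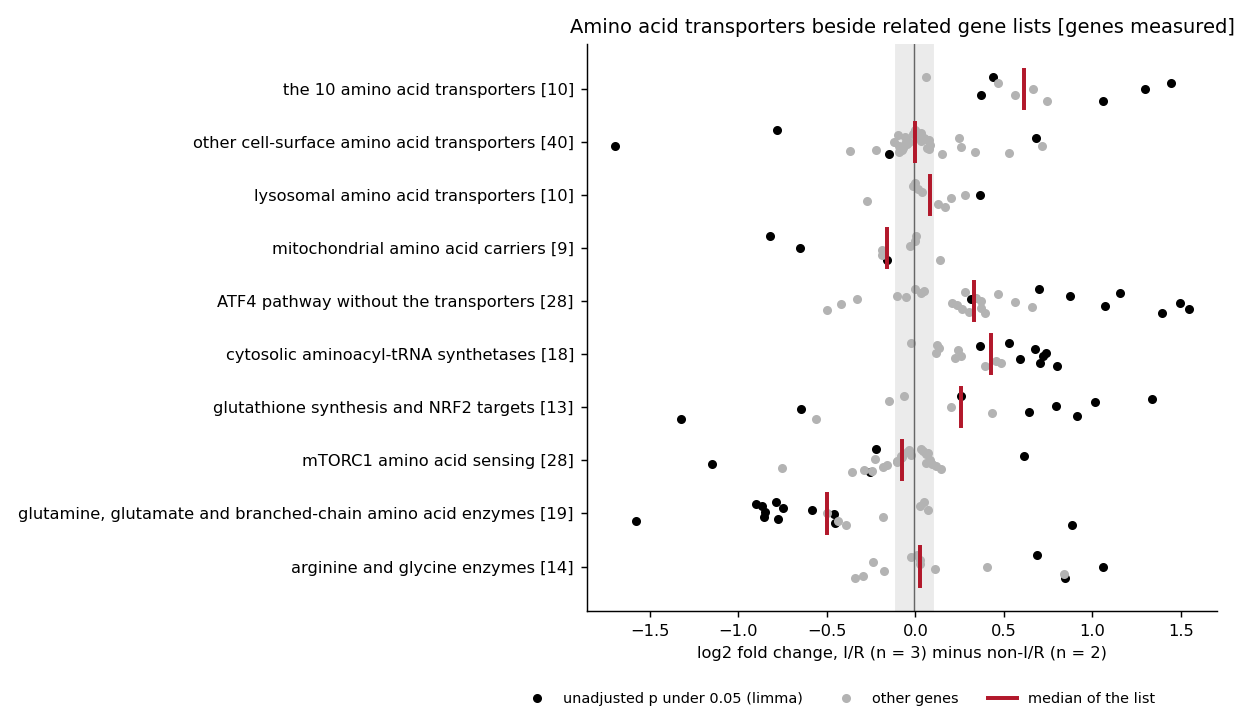
Log2 fold change (x axis, I/R minus non-I/R) of each gene in 10 lists, with black dots for an unadjusted p under 0.05 by limma, grey dots for the others and a red line at the median of the list; the grey band spans the quartiles of all 21789 probe sets. The 10 transporters all lie to the right of 0, with a median of 0.61, and the 40 other cell-surface transporters, of which 30 are at or under the median signal of all probe sets, spread from -1.70 to 0.71.

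Some genes that act with these transporters in the amino acid response were also higher. Of 28 measured genes of the ATF4 pathway, with the transporters left out, 8 were higher at an unadjusted p under 0.05 and 0 were lower, with a median log2 fold change of 0.33. Asparagine synthetase, Asns, had 11.06, 10.72 and 10.85 in I/R grafts 2553, 2555 and 2557, against 9.21 and 9.76 in non-I/R grafts 2554 and 2556. The others with the smallest p were the phosphatase subunit Ppp1r15a, the transcription factor Atf3 with 1.07 (SE 0.19) and the folate enzyme Mthfd2, and Atf4 itself had 0.87 (SE 0.19). Of the 28, 6 had lower means, among them the lipoprotein receptor Vldlr with -0.50 (SE 0.23) and the mTORC1 inhibitor Ddit4 with -0.42 (SE 0.29), in which every I/R graft was below both controls and which did not pass that threshold. Of 18 cytosolic aminoacyl-tRNA synthetases, which load amino acids onto their tRNAs, 8 were higher and 0 were lower, with a median of 0.42. All 18 had mean signals above the median of all probe sets. Gars had 0.80 (SE 0.085), Sars 0.71 (SE 0.11), Nars 0.59 (SE 0.11) and Cars 0.72 (SE 0.14). In 14 of the 18 every I/R graft lay above both non-I/R grafts, against 15.8% of all probe sets. Without non-I/R 2554 the median of the synthetases was 0.21, and that of the ATF4 pathway genes was 0.32. ATF4 pathway genes that did not pass included Ddit3 with 0.30 (SE 0.14), Trib3 with 0.56 (SE 0.39) and Chac1 with 0.47 (SE 0.61). In mean deviation, the ATF4 list was at 0.39, 0.13 and -0.026 in I/R grafts 2553, 2555 and 2557. It was at -0.31 and -0.19 in non-I/R grafts 2554 and 2556.

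Around cystine uptake, 6 of 13 genes of glutathione synthesis and the NRF2 response were higher at an unadjusted p under 0.05 and 2 were lower, with a median of 0.26. Gclc, the catalytic subunit of the rate-limiting enzyme of glutathione synthesis, had 0.64 (SE 0.17) and the haem oxygenase Hmox1 had 0.91 (SE 0.22). On the other side were Oplah, which returns glutamate from 5-oxoproline, with -1.33 (SE 0.22), and the quinone reductase Nqo1, an NRF2 target, with -0.65 (SE 0.18). Around arginine, 3 of 14 genes of arginine and glycine metabolism were higher and 0 were lower, with a median of 0.026. They were the arginases Arg1 with 0.69 (SE 0.23) and Arg2 with 0.85 (SE 0.23) and the polyamine enzyme Odc1 with 1.06 (SE 0.34).

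Enzymes of glutamine and branched-chain amino acid metabolism were mostly lower. Of 19 measured, 11 were lower at an unadjusted p under 0.05 and 1 was higher, with a median of -0.50. The aminotransferases of leucine, isoleucine and valine were split. The cytosolic form Bcat1 had 9.23, 9.35 and 9.26 in I/R grafts 2553, 2555 and 2557, against 8.31 and 8.48 in non-I/R grafts 2554 and 2556, which is 0.89 higher on the log2 scale (SE 0.072, limma adjusted p = 0.276). The mitochondrial form Bcat2 had -0.78 (SE 0.19), and the branched-chain ketoacid dehydrogenase, the next enzyme, had -0.58 (SE 0.18) for its subunit Bckdha, -0.79 (SE 0.27) for Bckdhb, -0.85 (SE 0.26) for Dld and -0.44 (SE 0.20) for Dbt, the last of which did not pass. Its regulators, which act in opposite directions, were both lower, with -1.58 (SE 0.38) for the activating phosphatase Ppm1k and -0.46 (SE 0.060) for the inhibiting kinase Bckdk. Of 28 genes by which mTORC1 senses amino acids, 1 was higher and 3 were lower, with a median of -0.079. Over all probe sets 7.64% were higher and 7.35% lower. The leucine sensor relative Sesn1 had -1.15 (SE 0.33), Sesn3 -0.22 (SE 0.073), the Ragulator subunit Lamtor5 -0.26 (SE 0.024) and the folliculin partner Fnip2 0.61 (SE 0.19).

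Marker genes of cardiomyocytes and neutrophils also differed between the groups. In whole tissue, fewer cells of a type and less RNA in each cell cannot be told apart. All 12 cardiomyocyte markers were lower in mean, 11 of them at an unadjusted p under 0.05, with mean log2 signals over the list of 11.94 to 12.25 in I/R grafts and 12.66 to 12.78 in non-I/R grafts. The sarcomere genes Mybpc3 and Ttn had signals of 10.65 to 11.60 and 11.52 to 12.28 over the 5 grafts, so heart muscle RNA was present in each. All 10 neutrophil markers measured were higher in mean, 5 of them at that threshold, with mean log2 signals of 9.77 to 10.57 in I/R grafts and 8.91 to 9.31 in non-I/R grafts. Ly6g, a marker of mouse neutrophils, had 0.75 (SE 0.15), the gelatinase Mmp9 1.45 (SE 0.39) and the receptor Csf3r 1.36 (SE 0.45). RMA gives no value of 0, so absence cannot be read from it, and 6 of the 11 lymphocyte markers measured had mean signals under the lower quartile of all probe sets. In mean deviation, the neutrophil list was at 0.050, 0.86 and 0.30 in I/R grafts 2553, 2555 and 2557 and at -0.81 and -0.40 in non-I/R grafts 2554 and 2556. I/R 2555, highest in neutrophil markers, was also the highest graft for Slc7a11 and Slc1a5, while I/R 2553, lowest of the I/R grafts in neutrophil markers, was the highest for 6 transporters. The part of neutrophils in the transporter signals was not tested.

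Of the other cell types, 0 of 12 macrophage markers passed an unadjusted p under 0.05 in either direction, with mean signals of 9.43 to 9.89 in I/R grafts and 9.52 to 10.1 in non-I/R grafts. Of 12 endothelial markers 1 was higher (Erg, 0.37, SE 0.091) and 0 were lower, and of 12 fibroblast markers 0 were higher and 1 was lower (Dcn, -0.72, SE 0.23). Of 11 lymphocyte markers 1 was higher and 1 was lower, of 8 nerve and glial markers 1 was higher (Uchl1, 1.10, SE 0.23), and of 3 erythroid markers none passed. Such small counts are near the 7.64% of all probe sets that were higher and the 7.35% that were lower. Atrial markers set grafts of the same group apart, with Myl7, the atrial myosin light chain, at 6.72, 11.08 and 8.56 in I/R grafts 2553, 2555 and 2557 and at 10.67 and 5.52 in non-I/R grafts 2554 and 2556. Without 2555 and 2554, the graft of each group with the most Myl7, the median of the 10 transporters was 0.41 and Slc7a1, Slc7a5, Slc7a11 and Slc3a2 had log2 fold changes of 0.92, 0.81, 0.93 and 0.28. This left 2 I/R grafts against 1 non-I/R graft, too few for a p-value to be read. It also removed the I/R graft highest in neutrophil markers and the non-I/R graft with the lowest signal in 8 of the 10 transporters. The part of atrial tissue in the transporter signals was not tested.

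**Figure D4:**
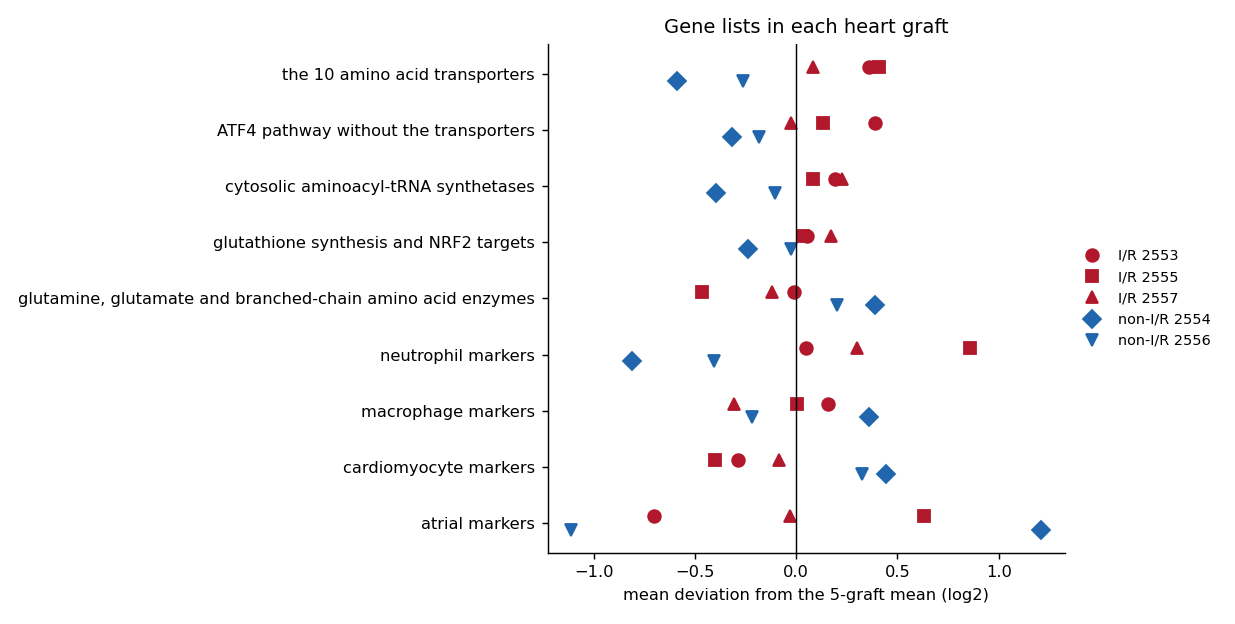
Levels of gene lists in each graft as the distance from the average of the 5 grafts (x axis, log2 units), with I/R grafts in red and non-I/R grafts in blue. The 10 transporters lie above 0 in all 3 I/R grafts and below 0 in both non-I/R grafts, neutrophil markers likewise, cardiomyocyte markers on the opposite sides, and atrial markers split both groups.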

How the data were processed

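The authors made the deposited log2 values with RMA in Partek (no versions are given in the sources used here) from 5 Affymetrix Mouse Gene ST arrays, 3 I/R and 2 non-I/R, 1 for each graft. RMA puts arrays on a common distribution, so a shift of most genes at once would not be seen, and array medians lay between 6.58 and 6.65. The values were used as deposited. The table holds 35556 probe sets, of which 21789 have a single symbol in the platform annotation, 1621 have several and 12146 are not listed there. Symbols were updated through gene IDs of GRCm38.p6, in which 21698 were found. Group differences were fitted for all 21789 by lmFit and eBayes of limma 3.58.1 under R 4.3.3, with a prior df of 0.824, and two-sided p-values were adjusted by Benjamini-Hochberg over all of them. Identical values on at least 2 arrays occurred in 11715 of them and on all 5 in 757, and their cause was not tested. A gene was counted by its brightest probe set.

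The members and the 18 other lists were chosen with earlier results of these data known, among them the study's own list of genes past 2-fold, which names Slc7a1, Slc7a5, Slc7a11 and Slc38a3, so no list is independent evidence. Named genes are all members, the up to 4 genes of each list with the smallest p, and others where needed to state a pattern. The steps were tested on simulated data. The simulated noise was independent and normal and held no tied values, so it does not show how limma behaves with the ties of these data. Nothing in the labels says whether the grafts came from separate experiments or gives a batch, so the p-values reflect only how these grafts vary, which may be technical, and the number of arrays limits the precision. Figures used Python 3.11.15 and matplotlib 3.10.9. Promoter sequences are RefSeq's. Coordinates of probe sets are not given in the sources used here.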

Additional observations from a re-analysis of the deposited data

How the results depend on the processing

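In the 17 other settings, 0 transporters were lower in I/R at an unadjusted p under 0.05, and 0 passed an adjusted p of 0.05. Of 166 log2 fold changes of single members in these settings, 2 changed sign, both of Slc7a3 (-0.083 without I/R 2553 and -0.053 with array weights), which ran between -0.083 and 0.19 with 1 graft left out. With 1 I/R graft left out, 2 to 5 members were higher at an unadjusted p under 0.05 by limma. Over all 21789 probe sets it was 1024 to 1423. The 2-fold criterion was then met by 1 to 2 members, a count for which no share over all probe sets was computed. Without non-I/R 2554, Slc7a1 and Slc7a5 were under 2-fold, at 0.92 and 0.86, and Slc7a11 was at 1.20. With any 1 graft left out, the median log2 fold change was 0.51 to 0.82, and 7 to 8 members had separated groups. Smaller groups separate more easily, so the 15.8% of all probe sets with 5 grafts is no measure for that count. No share over all probe sets was computed for it. With I/R 2555 and non-I/R 2554 both left out, the median was 0.41, and no member reached 2-fold, with Slc7a11 the highest at 0.93. Slc1a5 then had 0.27, and its values in the I/R grafts that remained, 2553 and 2557, were identical (8.92). Quantile normalization and cyclic loess brought Slc1a4 (0.77 and 0.74) and Slc38a2 (0.67 and 0.59) under an unadjusted p of 0.05, median-centring did so for Slc1a4 (0.77) and not for Slc38a2 (0.59), and the methods' t-test took Slc38a1 over it. Filters on dim probe sets left out Slc7a3, and a filter on ties left out Slc7a3 and Slc1a5. With the filter on ties, 7 of the 8 members left were higher at an unadjusted p under 0.05 by limma. Over all probe sets left it was 1574 of 10074. The prior df was then 3.05, against 0.824 with ties kept, so the limma p-values depend on the tied probe sets. Where a setting left 1 non-I/R graft, its spread was assumed to be that of the I/R grafts. No paired analysis was possible because the labels give no replicate numbers.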
